A study of Mus musculus with 8 samples.

Results

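The 10 genes described here are transcripts that the ERK branch of receptor signalling induces: the phosphatases Dusp4 and Dusp6, the inhibitors Spry1, Spry2, Spry4, Spred1 and Spred2, and the ETS transcription factors Etv1, Etv4 and Etv5. They were taken by gene symbol, with earlier results of these data known though no measured value entered the rule, and all 10 were found among the 26893 genes listed. RNA of the whole kidney was compared between 4 wild-type (WT) libraries, of C57BL/6 mice, and 4 Tsc1/Foxi1-dKO (dKO) libraries. The dKO mice carry floxed Tsc1 alleles (Tsc1 f/f) with Aqp2-Cre, which drives recombination in principal cells of the collecting duct, and in addition a Foxi1 knockout. All mice were 45 days old. Since Aqp2-Cre acts in a minority of kidney cells, a change limited to those cells is diluted in RNA of the whole organ. Fewer cells of a type and less RNA per cell cannot be told apart in such libraries. The strain background of the dKO mice and the sex of the animals are not given in the labels. The labels do not say whether the libraries of a group are separate animals, and the p-values here cover no more than the spread among the 8 libraries.

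Receptor tyrosine kinases such as KIT, EGFR and the FGF receptors pass their signal through RAS, RAF and MEK to the kinases ERK1/2. Active ERK switches on genes whose products restrain the same pathway. DUSP4 and DUSP6 remove phosphate from ERK, Sprouty proteins act between receptor and RAF, and SPRED proteins bring neurofibromin to RAS. The PEA3 family of ETS factors, ETV1, ETV4 and ETV5, carries the signal to further genes, and in the developing kidney ETV4 and ETV5 act downstream of RET in the ureteric bud. Transcripts of these genes are widely read as a record of recent ERK activity. TSC1 acts with TSC2 to hold mTORC1 in check, ERK and its target kinase RSK1 can phosphorylate TSC2, and FOXI1 is the transcription factor that specifies intercalated cells. The comparison addresses whether kidneys labelled as Tsc1/Foxi1-dKO differ from WT in the transcripts of ERK feedback.

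The dKO libraries are numbered in the order of the samples, since their labels hold a genotype and no replicate number. The libraries held between 14791687 (WT replicate 3) and 24973213 (dKO replicate 3) reads assigned to genes, so that 3 reads corresponded to between 0.121 and 0.207 CPM, the read count relative to the TMM-scaled library total. Foxi1 stood between 26.6 and 33.6 CPM in WT, at 1.33, 1.56 and 1.41 CPM in dKO replicates 1 to 3 and at 45.9 CPM in the dKO-labelled replicate 4, which goes against its genotype label. Tsc1 ran from 39.58 to 63.6 CPM in WT and from 43.33 to 57.65 CPM in dKO. The groups thus overlapped, and a loss of Tsc1 in principal cells is not visible in these values of the whole organ. The summed A-type intercalated cell markers (7 of 7 tested, 1 called lower) ran from 182 to 220 CPM in WT and were 4.87, 5.26 and 5.20 CPM in dKO replicates 1 to 3, but 287 CPM in the dKO-labelled replicate 4. Slc26a7, the 1 marker called lower, was at 1.376 CPM in that library, below its WT range of 1.605 to 3.802 CPM. In dKO replicate 1, Xist had 11083 reads against at most 11 in any other library, and Y-linked genes 364 reads against 2483 to 4931. Sex-linked reads thus set this library apart from all WT libraries, and the part of sex was not tested. Its principal cell markers (7 of 8 tested) summed to 1998 CPM against 680 to 791 in WT, and its proximal tubule markers (6 of 6 tested) to 10974 CPM against 16175 to 17976. The fold changes of the 10 genes and the calls in the pathway lists are therefore also given without these 2 libraries, whereas likeness and marker sums are over all 8. With both left out, only dKO replicates 2 and 3 remain against WT. Fewer libraries can by themselves raise an adjusted p, so a higher value in that setting is not read as a smaller difference.

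None of the 10 genes passed the test between dKO and WT. With p-values of edgeR's quasi-likelihood test adjusted over all 15912 tested genes and a threshold of 0.05, 0 of the 10 were called in either direction, where 1.16% of all tested genes were called higher and 1.12% lower in dKO. DESeq2 and limma-voom also called 0 of the 10. At an unadjusted p under 0.05, 3 of the 10 passed (Dusp6, Etv4 and Etv5, all higher in dKO), against 16.8% of all tested genes. The fold change was positive for 7 genes and negative for 3. The median log2 fold change over the 10 was 0.08, beside 0.01 over all tested genes. For 9 of the 10, the 95% interval of the fold change lay within a factor of 2 of no change, and Etv4, the least abundant, was the exception. These intervals rest on all 8 libraries, dKO replicate 1 and the dKO-labelled replicate 4 among them. Intervals without those libraries were not computed.

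**Figure D1:**
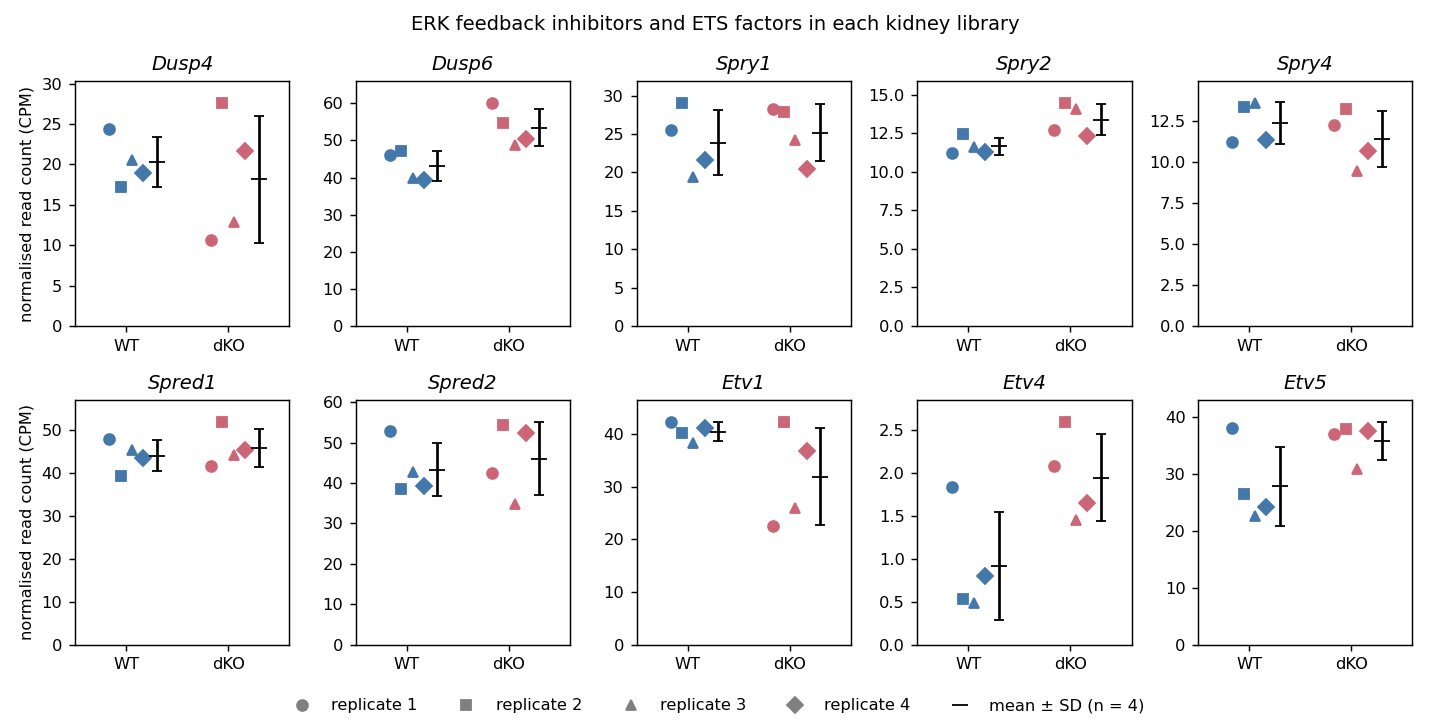
Normalised read count (CPM) of the 10 genes in each of the 4 WT and 4 dKO libraries, each panel on its own linear axis from 0, with symbols for replicates and the mean and SD (n = 4) beside them. Dusp6 is the only panel in which the groups do not overlap, and Dusp4 and Etv1 show a wide spread among the dKO libraries, from 10.6 to 27.6 CPM and from 22.6 to 42.2 CPM.

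Because the ETS factors of this set bind DNA around a GGAA core, the stretch before the start of the feedback genes is shown for the 3 genes whose RefSeq start (build GRCm38.p6) equals the gene start in the deposited table. The capitals mark each GGAA, or TTCC where the core lies on the other strand. Dusp6, the gene whose groups separate, is shown first, at chr10:99262981-99263230 on the plus strand, then Spry1 at chr3:37639697-37639946 on the plus strand, and Spry2 at chr14:105896820-105897069 on the minus strand. Each sequence is 250 bases long and runs 5′ to 3′ up to the base before the start.
Dusp6: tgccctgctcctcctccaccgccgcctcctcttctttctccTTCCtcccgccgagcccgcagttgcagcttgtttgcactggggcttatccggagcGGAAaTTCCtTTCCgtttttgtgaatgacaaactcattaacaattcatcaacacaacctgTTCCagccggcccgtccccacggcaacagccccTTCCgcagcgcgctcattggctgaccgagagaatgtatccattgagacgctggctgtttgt
Spry1: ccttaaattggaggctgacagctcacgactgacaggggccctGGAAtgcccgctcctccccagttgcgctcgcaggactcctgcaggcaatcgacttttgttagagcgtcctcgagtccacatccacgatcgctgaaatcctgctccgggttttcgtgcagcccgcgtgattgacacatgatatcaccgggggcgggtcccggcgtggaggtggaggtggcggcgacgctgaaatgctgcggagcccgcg
Spry2: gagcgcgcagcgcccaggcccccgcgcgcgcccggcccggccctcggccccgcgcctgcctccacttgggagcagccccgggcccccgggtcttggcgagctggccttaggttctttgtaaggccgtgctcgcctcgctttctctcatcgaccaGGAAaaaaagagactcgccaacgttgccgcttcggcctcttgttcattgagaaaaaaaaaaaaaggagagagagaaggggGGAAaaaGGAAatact
The Dusp6 stretch held 6 matches, the Spry2 stretch 3 and the Spry1 stretch 1. At least 6 matches were found in 8.69% of 32851 RefSeq promoter stretches of the same length, and at least 1 in 93.4% of them, so that a single match is what most promoters have. The longer ETS forms CCGGAA (12% of stretches) and CAGGAA (25.7%) both contain GGAA and were searched on both strands. In the stretches printed here they gave 0 and 1 match, the latter in Spry2. Of the 10 genes, 7 matched a RefSeq promoter, with 9 stretches in all. Spred2 had 7 matches of GGAA (at least as many in 3.82% of stretches) and Spred1 had 4, while 1 of the 2 starts of Etv5 had 0 and the other had 4. CAGGAA also had 1 match in Spred1 and 1 in that other start of Etv5. A match of letters is a description of the sequence and not a measured binding site.

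Dusp6 (chr10:99263231-99267489, plus strand) encodes the cytoplasmic phosphatase that is selective for ERK. Positions are those of the deposited table, which equal those of build GRCm38 for 9 of the 10 genes and overlap them for all 10. Dusp6 stood at 46.1, 47.1, 40.0 and 39.2 CPM in WT replicates 1 to 4, and at 60.0, 54.6, 48.7 and 50.4 CPM in the dKO libraries in the same order. Every dKO library lay above every WT library, with dKO replicate 3 closest to the WT range. No overlap with dKO higher was found in 1 of the 10 genes, against 6.06% of all tested genes, and no overlap with dKO lower in 0 of the 10, against 6.06%. WT averaged 43.1 ± 4.06 and dKO 53.4 ± 5.02 CPM (SD, n = 4), a fold of 1.24 (95% interval 1.07 to 1.44). The difference did not pass the threshold (log2 fold change 0.31, SE 0.096, edgeR adjusted p = 0.133). Without dKO replicate 1 the log2 fold change was 0.25 (edgeR adjusted p = 0.203), without the dKO-labelled replicate 4 it was 0.34 (edgeR adjusted p = 0.162), and without both it was 0.26 (edgeR adjusted p = 0.340).

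Dusp4 (chr8:34807297-34819894, plus strand) encodes a nuclear phosphatase of ERK and related kinases. Its WT libraries held 24.4, 17.2, 20.5 and 19.0 CPM, and its dKO libraries 10.6, 27.6, 12.9 and 21.6 CPM. The dKO libraries fell on both sides of the WT range, with replicates 1 and 3 below every WT library and replicate 2 above. The coefficient of variation was 15.2% in WT and 43.2% in dKO. The group means were 20.3 ± 3.08 and 18.2 ± 7.85 CPM (SD, n = 4). The log2 fold change of -0.16 (95% interval -0.80 to 0.47, edgeR adjusted p = 0.836) was within this spread, and without dKO replicate 1 it was 0.02 (edgeR adjusted p = 0.981), and without that library and the dKO-labelled replicate 4 it was -0.01 (edgeR adjusted p = 0.994).

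Of the Sprouty genes, whose products block the way from receptors to RAF and of which Spry1 limits RET signalling in the developing mouse kidney, Spry2 (chr14:105891947-105896819, minus strand) was the steadiest. Its WT libraries held 11.2, 12.5, 11.6 and 11.3 CPM and its dKO libraries 12.7, 14.4, 14.1 and 12.3 CPM. Of the dKO libraries, 3 lay above every WT library and the dKO-labelled replicate 4 lay just under WT replicate 2. The means were 11.7 ± 0.563 and 13.4 ± 1.02 CPM (SD, n = 4), a fold of 1.15 (95% interval 0.982 to 1.34, edgeR adjusted p = 0.365). Without that library and dKO replicate 1 the log2 fold change was 0.29 in place of 0.20 (edgeR adjusted p = 0.345).

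Spry1 (chr3:37639947-37644598, plus strand) was at 25.5, 29.0, 19.3 and 21.6 CPM in WT and at 28.3, 27.9, 24.2 and 20.4 CPM in dKO. The range of the dKO libraries lay inside that of WT. The means of 23.9 ± 4.26 and 25.2 ± 3.68 CPM (SD, n = 4) differed by less than 1 SD, with a fold of 1.05 (95% interval 0.843 to 1.32, edgeR adjusted p = 0.852). Spry4 (chromosome 18, minus strand) was at 11.2, 13.4, 13.6 and 11.3 CPM in WT and at 12.3, 13.3, 9.46 and 10.7 CPM in dKO. Here dKO replicates 1 and 2 lay inside the WT range and the other dKO libraries below it. The means were 12.4 ± 1.27 and 11.4 ± 1.70 CPM (SD, n = 4), a fold of 0.922 (95% interval 0.749 to 1.14, edgeR adjusted p = 0.724). The 3 Sprouty genes thus gave fold changes of both signs, and each interval included no change.

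The SPRED genes had fold changes close to 1. Spred1 (chr2:117121374-117182279, plus strand), which in humans is mutated in Legius syndrome, was at 47.9, 39.2, 45.4 and 43.6 CPM in WT and at 41.6, 51.9, 44.1 and 45.4 CPM in dKO. Only dKO replicate 2 lay outside the WT range, above it. The means were 44.0 ± 3.68 and 45.8 ± 4.39 CPM (SD, n = 4), with a fold of 1.04 (95% interval 0.90 to 1.20, edgeR adjusted p = 0.830), the narrowest interval of the 10 on the log2 scale. Spred2 (chr11:19924375-20024026, plus strand) was at 52.8, 38.5, 42.7 and 39.4 CPM in WT and at 42.5, 54.5, 34.9 and 52.4 CPM in dKO. The dKO libraries spanned the whole WT range, with replicate 2 above it and replicate 3 below. The means were 43.3 ± 6.56 and 46.1 ± 9.09 CPM (SD, n = 4), a fold of 1.06 (95% interval 0.840 to 1.34, edgeR adjusted p = 0.838). With dKO replicate 1 and the dKO-labelled replicate 4 left out, the log2 fold change was 0.13 for Spred1, 0.04 for Spred2, 0.12 for Spry1 and -0.13 for Spry4, with edgeR adjusted p between 0.798 and 0.983. Spred2 lies 14.2 Mb from Foxi1 on chromosome 11, and Spred1 lies 88.4 Mb from Tsc1 on chromosome 2. Chromosome 2, like others, holds genes called in this comparison, named here after their values were seen. Among them were Itpa (edgeR adjusted p = 9.47e-05), Snap23 (edgeR adjusted p = 0.000448) and Thbs1 (edgeR adjusted p = 0.000601), all higher in dKO. Whether the region around Spred1 differs between the groups was not tested.

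The 3 ETS factors did not share a direction. Etv4 (chr11:101769742-101785371, minus strand) was at 1.84, 0.535, 0.484 and 0.794 CPM in WT and at 2.08, 2.60, 1.45 and 1.65 CPM in dKO. These levels rest on few reads, namely 33, 10, 7 and 14 in WT and 47, 45, 36 and 30 in dKO. The other 3 WT libraries lay below every dKO library, but WT replicate 1 lay within the dKO range. WT averaged 0.913 ± 0.632 and dKO 1.95 ± 0.509 CPM (SD, n = 4), a fold of 2.10 (95% interval 1.11 to 3.96). The difference did not pass the threshold (log2 fold change 1.07, SE 0.41, edgeR adjusted p = 0.225), and without WT replicate 1 it stood at 1.66 (edgeR adjusted p = 0.0527). With dKO replicate 1 and the dKO-labelled replicate 4 left out it was 1.11 (edgeR adjusted p = 0.382). Etv4 lies 67.6 Mb from Foxi1 on chromosome 11.

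Etv5 repeated this layout at a higher level. Etv5 (chr16:22381309-22439719, minus strand) was at 38.0, 26.4, 22.6 and 24.1 CPM in WT and at 36.9, 37.9, 30.8 and 37.5 CPM in dKO. WT replicate 1 was the highest of all 8 libraries, and the other WT libraries lay below every dKO library. WT averaged 27.8 ± 6.98 and dKO 35.8 ± 3.32 CPM (SD, n = 4), a fold of 1.29 (95% interval 1.01 to 1.64, edgeR adjusted p = 0.271). Without WT replicate 1 the log2 fold change was 0.55 in place of 0.36, and the edgeR adjusted p was 0.0452, the single setting of 19 in which any of the 10 genes was called. With dKO replicate 1 and the dKO-labelled replicate 4 left out, the log2 fold change of Etv5 was 0.30 (edgeR adjusted p = 0.633). Over the 19 settings its adjusted p ran from 0.0452 to 0.633. WT replicate 1 also had the lowest summed endothelial markers (8 of 8 tested) of the 8 libraries, 488 CPM against 516 to 816 CPM elsewhere, and the lowest fibroblast and pericyte markers (6 of 6 tested), 222 CPM against 240 to 361 CPM. No marker of either list was at 0 in every library, and their part in the values of Etv4 and Etv5 was not tested.

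Etv1 was the ETS gene with a negative fold change. Etv1 (chr12:38779380-38870484, plus strand) was at 42.3, 40.2, 38.2 and 41.1 CPM in WT, the tightest WT group of the 10 genes with a coefficient of variation of 4.30%, and at 22.6, 42.2, 26.0 and 36.8 CPM in dKO. Of the dKO libraries, 3 lay below every WT library and replicate 2 lay within the WT range. WT averaged 40.5 ± 1.74 and dKO 31.9 ± 9.18 CPM (SD, n = 4), a fold of 0.787 (95% interval 0.599 to 1.03, edgeR adjusted p = 0.367). Without dKO replicate 1 the log2 fold change was -0.21 in place of -0.35 (edgeR adjusted p = 0.559), and without that library and the dKO-labelled replicate 4 it was -0.25 (edgeR adjusted p = 0.646).

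**Figure D2:**
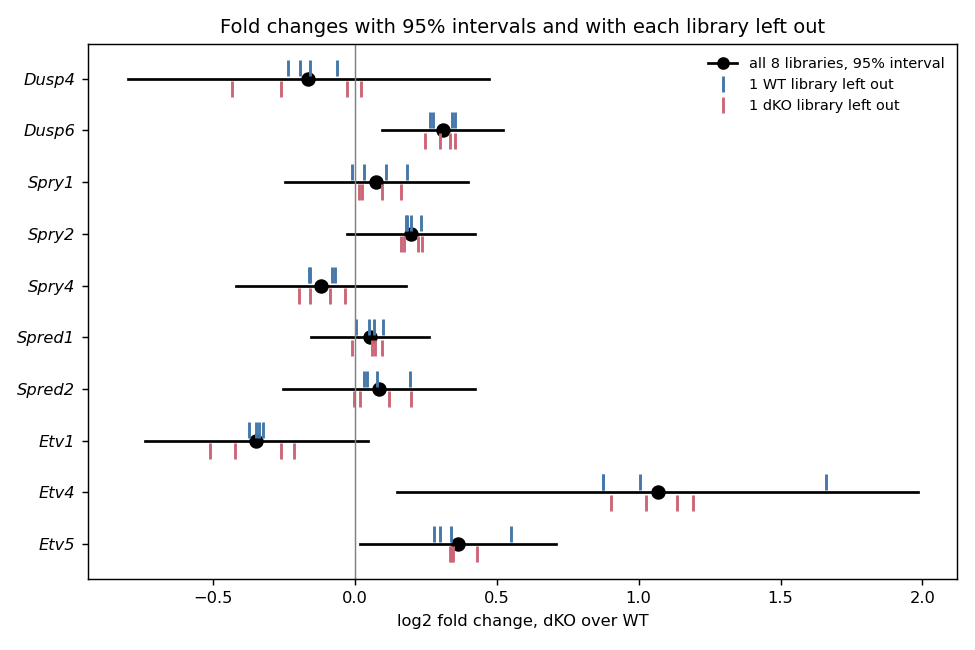
Log2 fold change of dKO over WT for each gene (x axis), with the 95% interval from all 8 libraries (black) and the value with each WT library (blue ticks) or each dKO library (red ticks) left out. The intervals of Dusp6, Etv4 and Etv5 lie above 0, and leaving out WT replicate 1 moves Etv4 from 1.07 to 1.66.

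Among the dKO libraries, replicate 2 had the highest level of 8 of the 10 genes, and replicate 1 that of the other 2, Dusp6 and Spry1. Of all tested genes, 22.7% were highest in dKO replicate 2 and 32.4% in dKO replicate 1. Replicate 3 was the lowest for 5 genes, replicate 1 for 3 and the dKO-labelled replicate 4 for 2, and the matching shares of all tested genes were not determined. All 10 genes lay above the WT mean of log2 CPM in dKO replicate 2 (51.2% of all tested genes). The count was 5 in replicate 1 (51.3%), 6 in replicate 3 (50.7%) and 7 in the dKO-labelled replicate 4 (51.5%). The summed level of the 10 genes was 301, 264, 254 and 251 CPM for WT replicates 1 to 4, and 270, 327, 247 and 289 CPM for dKO, so that the groups overlapped. Among the WT libraries, replicate 1 was the highest for 6 of the 10 genes (27.2% of all tested genes).

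Dusp4 and Etv1 shared the widest spread among dKO libraries and the same order there, with replicates 1 and 3 low, the dKO-labelled replicate 4 between and replicate 2 high. In log2 CPM, Dusp4 was 0.92 and 0.64 under the WT mean in replicates 1 and 3, where Etv1 was 0.84 and 0.64 under it. These 2 libraries were also the deepest of the 8, with 21293850 and 24973213 reads. They had the highest summed endothelial markers (816 and 662 CPM, against 516 and 539 in dKO replicate 2 and the dKO-labelled replicate 4, with 488 to 614 in WT), and the highest fibroblast and pericyte markers (361 and 354 CPM, against 289 and 240 in that pair, with 222 to 347 in WT). The part of depth and of these cell types in the low values was not tested.

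**Figure D3:**
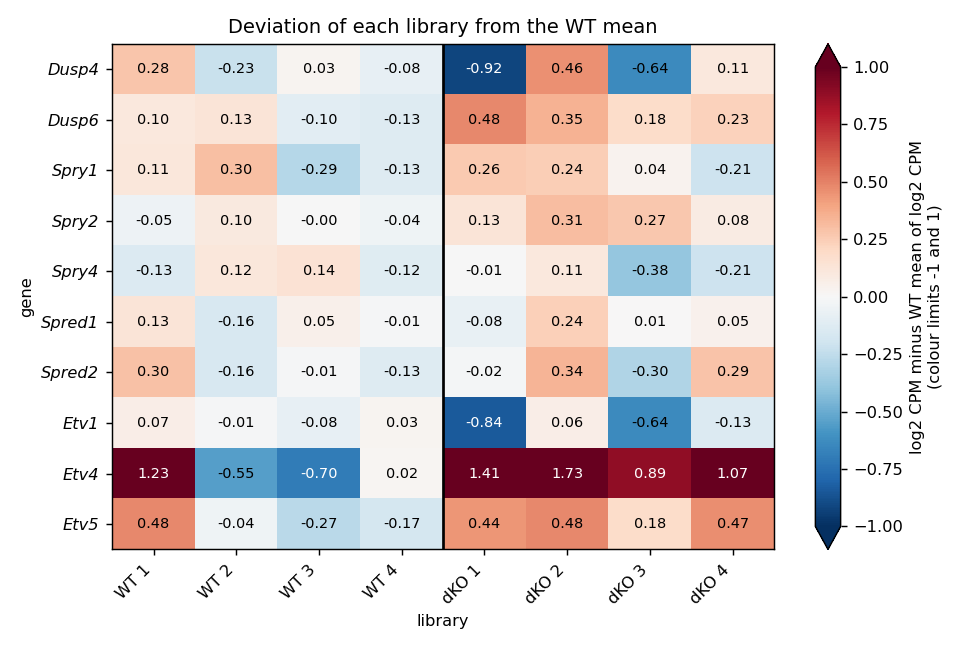
Deviation of each library (columns) from the WT mean of log2 CPM for each gene (rows), in log2 units, with colour limits at -1 and 1. The column of dKO replicate 2 is above 0 for all 10 genes, and the rows of Dusp4 and Etv1 are below -0.60 in dKO replicates 1 and 3.

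The dKO-labelled replicate 4, which kept Foxi1, lay inside the range of dKO replicates 1 to 3 for 8 of the 10 genes. For Spry1 and Spry2 it lay below that range. The share over all tested genes was not determined, so the count is not read as a trait of the 10. Kit, the receptor of intercalated cells, was at 2.17, 2.25 and 2.74 CPM in dKO replicates 1 to 3 and at 25.6 CPM in that library, against 18.3 to 23.4 CPM in WT. Dusp6 lay above its WT range of 39.2 to 47.1 CPM both in the 3 libraries with low Kit (48.7 to 60.0 CPM) and in the dKO-labelled replicate 4 (50.4 CPM). The latter is 1 library, the Dusp6 difference did not pass the threshold, and the part of Kit or Foxi1 in it was not tested.

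Per kilobase of gene length, on the deposited FPKM scale, Dusp6 was the most abundant of the 10 in both groups, at 13.7 ± 1.30 in WT and 17.0 ± 1.58 in dKO (SD, n = 4). It was followed in WT by Spred2 (9.37 FPKM), Spry1 (8.20), Dusp4 (7.38), Etv5 (6.76), Spred1 (6.48) and Spry2 (5.58). The WT ranges of neighbours in this middle group overlapped, so that the order of neighbours is not resolved by these libraries. Genes further apart in it could separate, as the WT range of Spred2 lay above those of Spred1 (5.79 to 7.04 FPKM) and Spry2 (5.37 to 5.99 FPKM). Etv1 (3.04 FPKM) and Spry4 (2.70 FPKM) came next, also with overlapping WT ranges, and Etv4 was last with 0.293 FPKM in WT and 0.623 FPKM in dKO. The WT range of Dusp6, from 12.5 to 15.1 FPKM, lay above that of Spred2, from 8.35 to 11.4 FPKM. In dKO the order of the middle group differed, with Etv5 at 8.67 FPKM ahead of Spry1 at 8.62 FPKM, again with overlapping ranges.

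**Figure D4:**
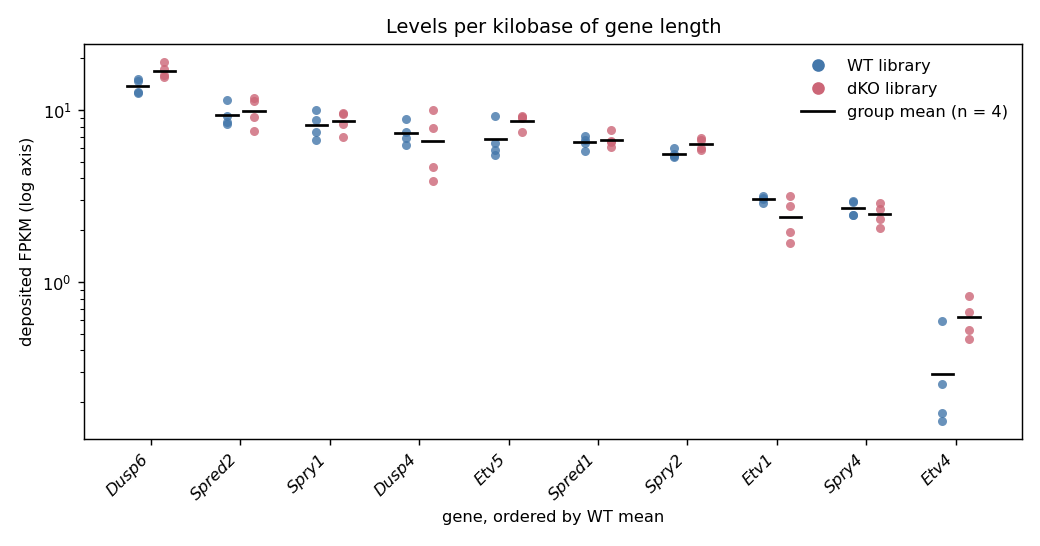
Deposited FPKM of the 10 genes in each WT (blue) and dKO (red) library on a log axis, ordered by the WT mean, with lines at the group means (n = 4). Dusp6 is highest, 6 genes lie together between means of 5.58 and 9.91 FPKM, and Etv4 is lowest.

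Other genes of the pathway were read from 7 lists, and with all 8 libraries 0 of their 93 tested genes passed the test in either direction. This count depends on the libraries that stand apart. Without the dKO-labelled replicate 4, Kit was called lower (log2 fold change -3.15, edgeR adjusted p = 7.02e-06, against -1.39 and 0.481 with it). Met, the receptor of HGF, was called lower without dKO replicate 1 (log2 fold change -0.41, edgeR adjusted p = 0.0407), and both Kit and Met were called with both libraries left out, with 0 of the 93 called higher in each case. Of all tested genes, 1.14% were called lower without the dKO-labelled replicate 4, 2.02% without dKO replicate 1 and 1.76% without both. For 93 genes, 1 or 2 calls are near these shares. The other dual-specificity phosphatases (8 of 8 tested) had a median log2 fold change of 0.23, with 6 positive, and the most abundant per length were Dusp1, an immediate-early phosphatase of stress kinases, at 62.0 ± 6.38 CPM in WT and 56.2 ± 6.89 in dKO, and Dusp7, at 31.8 ± 4.41 and 33.1 ± 7.44 CPM (SD, n = 4). The remaining feedback inhibitors (4 of 4 tested) had a median of 0.11. Among these, Errfi1, an inhibitor of EGFR, was at 560 ± 93.4 CPM in WT and 500 ± 49.2 in dKO. Il17rd, which encodes the FGF signalling inhibitor SEF, was at 11.9, 11.2, 10.2 and 12.1 CPM in WT and at 16.5, 16.6, 13.9 and 14.6 CPM in dKO. As for Dusp6, every dKO library lay above every WT library, and the log2 fold change of 0.44 did not pass the threshold (edgeR adjusted p = 0.0704, and 0.171 with dKO replicate 1 and the dKO-labelled replicate 4 left out).

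Other transcripts induced through ERK (10 of 10 tested) had a median log2 fold change of 0.25, with 9 positive, and none without overlap between groups. Ccnd1, which encodes cyclin D1, was at 179 ± 32.0 CPM in WT and 192 ± 50.2 in dKO, and Ier3 at 26.5 ± 4.46 and 32.2 ± 6.78 CPM (SD, n = 4). Egr1, an immediate-early factor named after its values were seen, spread from 3.11 to 12.03 CPM in WT and from 3.63 to 21.8 CPM in dKO, with its highest value in dKO replicate 2. The other ETS factors (15 of 15 tested) had a median of 0.08 with 10 positive. Erf, a repressor that ERK inactivates, was at 52.0 ± 3.44 and 56.1 ± 5.99 CPM, and Ets2 at 70.7 ± 2.22 and 64.6 ± 7.30 CPM in WT and dKO (SD, n = 4).

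Upstream of ERK, the cascade genes (22 of 22 tested) had a median log2 fold change of -0.02, with 10 positive. Mapk3, which encodes ERK1, was at 74.3 ± 8.58 CPM in WT and 91.0 ± 8.91 in dKO (edgeR adjusted p = 0.179), and Map2k2, which encodes MEK2, at 174 ± 9.33 and 156 ± 9.71 CPM (SD, n = 4). The receptor tyrosine kinases (17 of 17 tested) had a median of 0.05 with 11 positive. Met was at 248 ± 19.98 CPM in WT and 173 ± 30.6 in dKO without overlap (log2 fold change -0.52, edgeR adjusted p = 0.0721), and Fgfr4 at 84.3 ± 4.34 and 72.6 ± 10.01 CPM. The receptor ligands (17 of 20 tested) had a median of 0.14 with 10 positive. Egf, made by the distal tubule, was at 1577 ± 113 CPM in WT and 1749 ± 144 in dKO, and Vegfa at 303 ± 12.8 and 310 ± 22.7 CPM (SD, n = 4). Outside the rule for named genes, and named after their values were seen, were the other genes without overlap between the groups: Fgfr1, Pdgfb and Pdgfc were higher in every dKO library, and Etv6, Nf1, Hbegf, Fgf7 and Pdgfd lower. With Il17rd and Met, 4 of the 93 tested genes of the lists (4.30%) were higher and 6 (6.45%) lower without overlap, near the 6.06% of all tested genes in each direction. None of these genes without overlap passed the test with all 8 libraries, with edgeR adjusted p from 0.0588 (Fgf7) to 0.280 (Etv6).

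**Figure D5:**
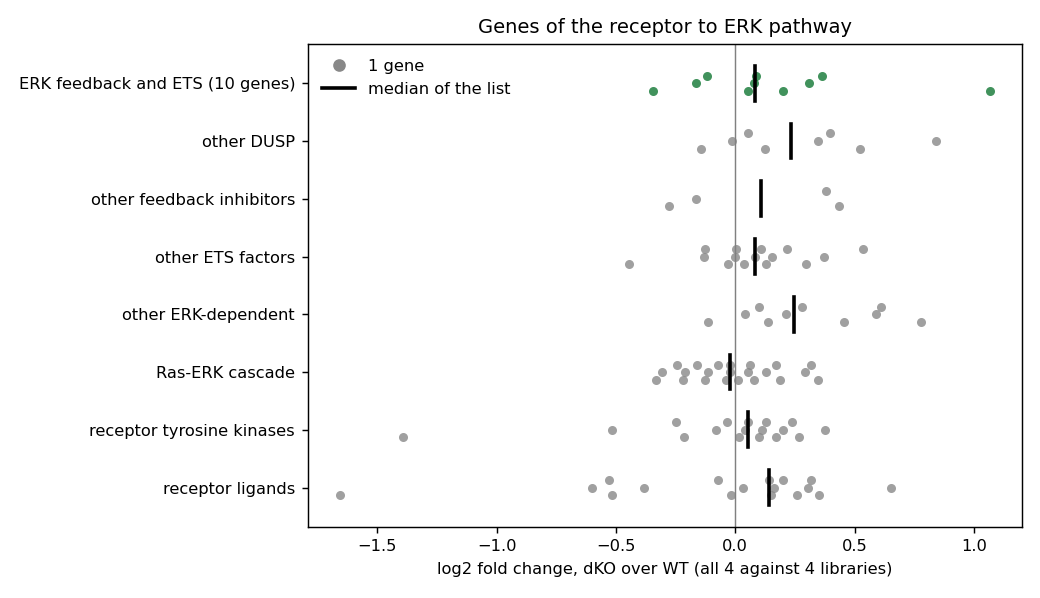
Log2 fold change of dKO over WT (x axis) for each tested gene of the 10 (green) and of the 7 other lists of the pathway (grey), with the median of each list as a black line. The medians run from -0.02 for the Ras-ERK cascade to 0.25 for other ERK-dependent transcripts, and no gene shown passed the test with all 8 libraries.

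The genes whose profile over the 8 libraries lay closest to that of the 3 genes with the smallest adjusted p were found among 11351 tested genes with a mean of at least 5 CPM. Likeness was the root mean square difference of log2 CPM, centred on each gene's mean, where a smaller value is closer. For Dusp6 these were Kifc2 (0.0423), Slc5a11 (0.0536) and Gabarapl1 (0.0614). For Etv5 they were Slc6a19 (0.0926), Lima1 (0.0933) and Chn1 (0.0939). For Etv4, measured on few reads, the closest were further off, Gm48135 at 0.322, 4732463B04Rik at 0.421 and Tbxas1 at 0.422.

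Marker sums of 4 lists did not overlap between the groups either, as for Dusp6, while those of all other marker lists did overlap. Over the 4 WT and 4 dKO libraries, principal cell markers ran from 680 to 791 and from 880 to 1998 CPM (7 of 8 tested, 1 called higher). Aqp2 alone was 1234 CPM of the 1998 in dKO replicate 1, and 2 of the 7 tested markers were higher without overlap. Distal convoluted and connecting tubule markers ran from 1241 to 1656 and from 1863 to 3068 CPM (5 of 5 tested, 1 called higher), and thick ascending limb markers from 3621 to 4028 and from 4184 to 4829 CPM (4 of 4 tested, none called). The latter sum is mostly Umod and Slc12a1, and Cldn10 of the same list was lower in every dKO library (184 ± 18.6 CPM in WT and 138 ± 12.8 in dKO, SD, n = 4, log2 fold change -0.42, edgeR adjusted p = 0.0621). Blood markers ran from 289 to 561 CPM in WT and from 209 to 259 CPM in dKO (5 of 5 tested, none called). No marker of these 4 lists was at 0 in every library, and the part of these cell types in the Dusp6 values was not tested.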

How the data were processed

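Poly(A) RNA of whole kidney was measured in 4 WT and 4 dKO libraries on a HiSeq instrument. Per the labels, alignment was with HISAT2 2.0.4 and counting with HTSeq 0.9.1. A genome build was not stated in the labels or methods read. The positions of 9 of the 10 genes equal those of GENCODE M21 (GRCm38), and all 10 overlap them. Raw gene counts are deposited, on which every test here was run. The table also holds FPKM values, which the authors made per kilobase of gene length and relative to a scaled library size. Size-factor-scaled values, group means, fold changes and p-values of the authors stand in the same table and were not used. In 23 rows a symbol turned into a date was restored by its identifier. No sample column remained unmatched.

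Genes were kept by filterByExpr (minimum count 10, minimum total count 15), which left 15912. With TMM scaling, the 2 groups were compared by the quasi-likelihood F test of edgeR 4.0.16 in R 4.3.3 (robust, two-sided, Benjamini-Hochberg over all tested genes, threshold 0.05). Normalised read counts are CPM. The edgeR step was tested on simulated data. Alternatives used DESeq2 1.42.0, limma 3.58.1 (voom, and log2 of FPKM plus 1 or plus 0.1), other scalings and filters, and left out each library. Total counts per library, from 14791687 to 24973213, limit the precision of low genes such as Etv4. Promoter sequences are from RefSeq. The 10 genes and all gene and marker lists were chosen with earlier results of these data known. The rule for named genes took all 10 and, from each other list, genes past the threshold or else the 2 highest per kilobase. The lists cover other phosphatases, feedback inhibitors, ETS factors, ERK-dependent transcripts, the cascade, receptors and ligands, and markers of the cell types given in the text.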

Additional observations from a re-analysis of the deposited data

Results flagged for a closer look

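Etv5 in dKO replicate 3, at 30.85 CPM, lay far from the other dKO libraries, which stood between 36.9 and 37.9 CPM. Its gap to the nearest library, as a share of the whole range of the group, was above the critical value of Dixon's test for 4 values (0.829). This was the 1 value singled out in 20 groups tested (10 genes in 2 groups), and chance alone singles out about 1 in 20. The value is still above WT replicates 2 to 4.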

How the results depend on the processing

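Over 19 alternative settings, the number of the 10 genes called was 0 in 18 and 1 (Etv5) without WT replicate 1. Over all genes, 363 were called by edgeR's quasi-likelihood test, 974 by DESeq2, 522 with dKO replicate 1 and the dKO-labelled replicate 4 both left out, and between 138 (without WT replicate 4) and 628 (without dKO replicate 1) when 1 library was left out. Leaving out 1 library gave 0 to 1 of the 10 genes called. In the 7 other pathway lists, a setting added after the data were seen gave 1 call without dKO replicate 1 (Met), 1 without the dKO-labelled replicate 4 (Kit) and 2 without both, against 0. These calls were all lower in dKO, where 2.02%, 1.14% and 1.76% of all tested genes were called lower in the same settings. The share of higher among called genes was 50.7%, and between 41.3% and 54.1% elsewhere.

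Of the 10 genes, 6 kept the sign of their log2 fold change under all 19 settings. The other 4 changed sign when 1 library was left out, and the cause was not tested. Dusp4 ran from -0.43 to 0.0219 (above 0 without dKO replicate 1), Spry1 from -0.01099 to 0.18 (below 0 without WT replicate 3), Spred1 from -0.0096 to 0.098 and Spred2 from -0.0028 to 0.20 (both below 0 without dKO replicate 2). Dusp6 ran from 0.25 to 0.35 over all settings, with edgeR, DESeq2 or limma adjusted p from 0.0998 to 0.340. No paired analysis was possible because the labels give the dKO samples no replicate number.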
